A study of Homo sapiens with 12 samples.

Results

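The genes of the interferon-induced transmembrane proteins (IFITM1, IFITM2 and IFITM3) and of the guanylate-binding proteins (GBP1, GBP2, GBP3, GBP4 and GBP5) were followed in 2 hepatocellular carcinoma cell lines. All array features, called probe sets, that the platform annotation assigns to these 8 gene symbols were taken, 15 of the 54613 probe sets measured and 8 of the 19775 genes with a probe set of a single symbol. The IFITM genes had 4 probe sets and the GBP genes 11. The genes were chosen by measured levels, after members of both families had been seen higher in DAAD2-treated than in DMSO-treated SNU449 cells, so the values from that line are a description, with no p-value for a member, and calls from its fit are counted only to set them beside those of all probe sets. DAAD2 is an N-acetyl-L-cysteine derivative of dehydroabietylamine, tested for its effect on the growth of liver cancer cells. SNU449 cells, the line labelled resistant, received 20 µM DAAD2 for 72 h or 0.1% DMSO as vehicle, and Hep3B cells, the line labelled sensitive, received 2 µM DAAD2 for 72 h or 0.1% DMSO. The labels do not give the DMSO content of the DAAD2-treated cells. Each of the 4 groups had 3 Affymetrix U133 Plus 2.0 arrays, 12 in all. The study describes its data in general as coming from independent experiments and its arrays as triplicates, but does not say for the arrays that the cultures were separate. Every p-value therefore reflects array-to-array spread, possibly technical only. The 2 lines are single cell lines that received different doses, so line and dose cannot be told apart in any contrast of their responses.

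Interferons act through receptors at the cell surface, Janus kinases and transcription factors that bind short DNA motifs, the interferon-stimulated response element (ISRE) and the gamma-activated site (GAS), in the promoters of their target genes. IFITM proteins sit in the membranes of the cell surface and of endosomes and hinder the entry of many enveloped viruses. Guanylate-binding proteins are large GTPases, strongly induced by interferon-gamma in many cell types, that assemble on the compartments of intracellular pathogens, and several of them carry a prenyl lipid anchor. Both families belong to the innate defence of epithelial cells, hepatocytes included.

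All 6 measured hepatocyte markers were higher in DMSO-treated Hep3B than in DMSO-treated SNU449 cells, while of the 6 mesenchymal markers 4 were lower in Hep3B and 2, FN1 and TGFBI, higher. ALB, the gene of albumin, had a mean log2 level of 14.53 in DMSO-treated Hep3B cells and 3.18 in DMSO-treated SNU449 cells, and VIM, the gene of the filament protein vimentin, had 10.24 in Hep3B and 13.94 in SNU449. Of the leukocyte and endothelial markers, PTPRC and CDH5 were below the array medians in all 4 groups, whereas CD3E, CD79A and PECAM1 were above them in all 4, at means of 4.35 to 5.88. CD14 and LYZ, the gene of lysozyme, were above them in Hep3B, with LYZ at 12.14 in DMSO-treated cells. The part of these markers in the results was not tested. The median level of an array ranged over 3.71 to 3.85 (log2). For GAPDH, the excess of the 3′ over the 5′ probe set, a sign of RNA quality, was 1.99 (log2) on the second DAAD2 array of SNU449 and 0.34 to 0.97 on the remaining arrays of that line. In Hep3B this excess was 1.51 on the first DMSO array and 0.45 to 1.05 on the remaining arrays. For ACTB the excess was larger on every array. In SNU449 it was 2.64, 3.04 and 2.52 with DAAD2 and 2.76, 1.82 and 2.15 with DMSO. In Hep3B the ACTB excess was 2.29, 2.49 and 3.27 with DAAD2 and 2.73, 1.93 and 2.90 with DMSO. The part of either excess in the results was not tested.

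To show the interferon motifs these genes carry, the promoter windows of RefSeq (GRCh38.p14, 250 bases before to 50 after the start of the gene) were searched for the ISRE core, which is GAAA, any 2 bases and GAAA (TTTC, any 2 bases and TTTC on the other strand), and for the GAS motif, which is TTC, any 3 bases and GAA and reads the same on both strands. A window was at hand for 5 of the 8 genes, and all 5 held an ISRE core, which 3.57% of 35116 human windows held. The GAS motif was in 2 of the 5, IFITM1 and GBP3, against 7.66% of all windows. A match is a run of letters and not a measured site. The ISRE matches are printed 5′ to 3′ on the strand of the gene, with the match in capitals and 10 bases on each side:
IFITM1, distal: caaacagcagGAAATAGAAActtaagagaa
IFITM1, proximal: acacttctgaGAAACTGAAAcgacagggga
IFITM3, distal: caaatgccagGAAAAGGAAActgttgagaa
IFITM3, proximal: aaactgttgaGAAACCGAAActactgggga
GBP1: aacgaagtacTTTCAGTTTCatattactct
GBP3: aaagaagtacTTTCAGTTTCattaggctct
GBP4: gtgcatgtccTTTCAATTTCggttctcaca
The IFITM1 stretches lie on the plus strand at chr11:313990-314019 and chr11:314024-314053, and their matches begin 40 and 6 bases before the start of the gene. The IFITM3 stretches lie on the minus strand at chr11:320893-320922 and chr11:320876-320905, with matches that begin 52 and 35 bases before the start. The GBP genes are on the minus strand of chromosome 1. The GBP1 stretch (chr1:89065316-89065345) has its match 127 bases before the start, the GBP3 stretch (chr1:89022845-89022874) 2 bases after the first transcribed base, and the GBP4 stretch (chr1:89198927-89198956) 4 bases before the start. GBP1 and GBP3 carried the same match, TTTCAGTTTC. The GAS match of IFITM1, aaatacacacTTCTGAGAAactgaaacga (plus strand, chr11:314018-314046), shared bases with its proximal ISRE match, whereas that of GBP3, actgagtcacTTCCTTGAAagaagtactt (minus strand, chr1:89022863-89022891), lay apart from its ISRE match.

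In SNU449 cells, the IFITM genes and GBP1, GBP2 and GBP3 had higher levels after DAAD2, while GBP4 and GBP5 were below the array medians with and without it. IFITM1, the plasma-membrane member of its family, had log2 levels of 7.22, 6.03 and 6.61 on probe set 214022_s_at in DAAD2-treated cells, against 4.52, 4.49 and 4.32 in DMSO controls. All 3 DAAD2 arrays lay above the controls, and the log2 difference of 2.17 (SE 0.25) was a 4.51-fold higher level. This was the 8th largest rise of the 54613 probe sets. Since this contrast led to the choice of the genes, nothing is read from the rank. Directions here follow the sample labels, since in the study's own list for this line the headings of the group means run against those of its fold columns.

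Probe set 201601_x_at, which the annotation assigns to IFITM1 or IFITM2, read 7.32, 6.64 and 6.42 in DAAD2-treated SNU449 cells and 5.84, 5.58 and 5.55 in DMSO controls. The groups did not overlap, and the difference was 1.13 (SE 0.22). IFITM2, a member found mainly in endosomes, had log2 levels of 11.78, 11.55 and 11.59 on 201315_x_at after DAAD2, against 10.85, 10.80 and 10.76 with DMSO, a 1.79-fold higher level. IFITM3, the family member best known for blocking influenza virus in endosomes, had 11.82, 11.49 and 11.63 on 212203_x_at after DAAD2 and 11.09, 10.87 and 10.89 with DMSO, a 1.62-fold higher level. All DAAD2 arrays of both genes lay above all controls, and replicate 1 of the DAAD2 group was the highest array for each of the 4 IFITM probe sets. The 3 IFITM genes are close paralogs, and the suffix _x_at marks probe sets whose probes can match several transcripts, so signal may be shared between IFITM1, IFITM2 and IFITM3.

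Among the guanylate-binding proteins, GBP2 differed most in SNU449. GBP2 had log2 levels of 7.05, 6.63 and 6.72 on 202748_at in DAAD2-treated cells, against 5.08, 4.66 and 5.00 in DMSO controls. The groups lay well apart, with a difference of 1.89 (SE 0.16), a 3.69-fold higher level. GBP3 followed with 7.89, 7.61 and 7.77 on 223434_at after DAAD2 and 6.13, 6.44 and 5.88 with DMSO. Its 3.04-fold higher level (log2 difference 1.61) again came without overlap. GBP1, the most studied human member, which coats bacteria in the cytosol, had 6.58, 6.93 and 6.28 on 202270_at after DAAD2 and 5.66, 5.55 and 5.73 with DMSO, a 1.93-fold higher level. For GBP1 the highest array was replicate 2 of the DAAD2 group, the one with the raised GAPDH 3′ signal, and the difference was 0.78 without that array.

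**Figure D1:**
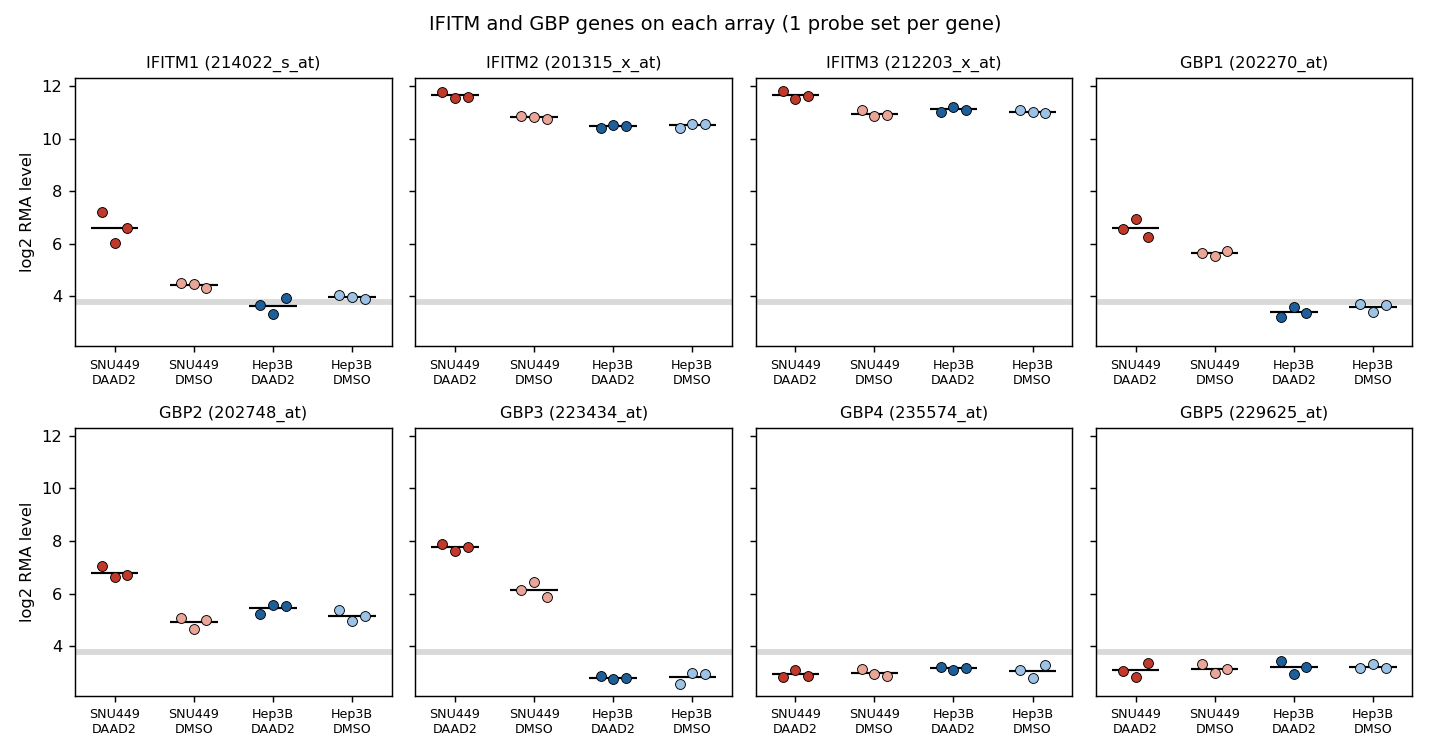
Log2 RMA level (y axis) of 1 probe set for each of the 8 genes on each of the 12 arrays, with a point per array, a line at each group mean and a grey band for the range of the array medians (3.71 to 3.85). In SNU449 the DAAD2 points of the 3 IFITM genes and of GBP1, GBP2 and GBP3 lie above the DMSO points, whereas in Hep3B the DAAD2 and DMSO points of every gene lie close together.

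Probe sets of one gene did not all read alike. GBP1 had 4 probe sets. On 202269_x_at its levels were 5.61, 6.20 and 5.23 after DAAD2, against 4.99, 4.63 and 4.87 with DMSO, without overlap and with a difference of 0.85. On 231577_s_at they were 5.58, 6.61 and 6.02 after DAAD2 and 5.38, 5.21 and 5.85 with DMSO, and the groups overlapped. The fourth, 231578_at, stayed between 2.91 and 3.28 on all 12 arrays, below every array median. The second GBP2 probe set, 242907_at, read 3.89, 3.48 and 3.06 after DAAD2 and 2.96, 2.95 and 3.11 with DMSO, with overlap, and was above the array median on only 1 array. The 4 probe sets of GBP4 and GBP5, an activator of inflammasomes in mouse macrophages, lay between 2.74 and 3.45 in both lines. With 231578_at, 5 probe sets were thus below the array median on all 12 arrays, with SNU449 differences of -0.05 to 0.15.

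**Figure D2:**
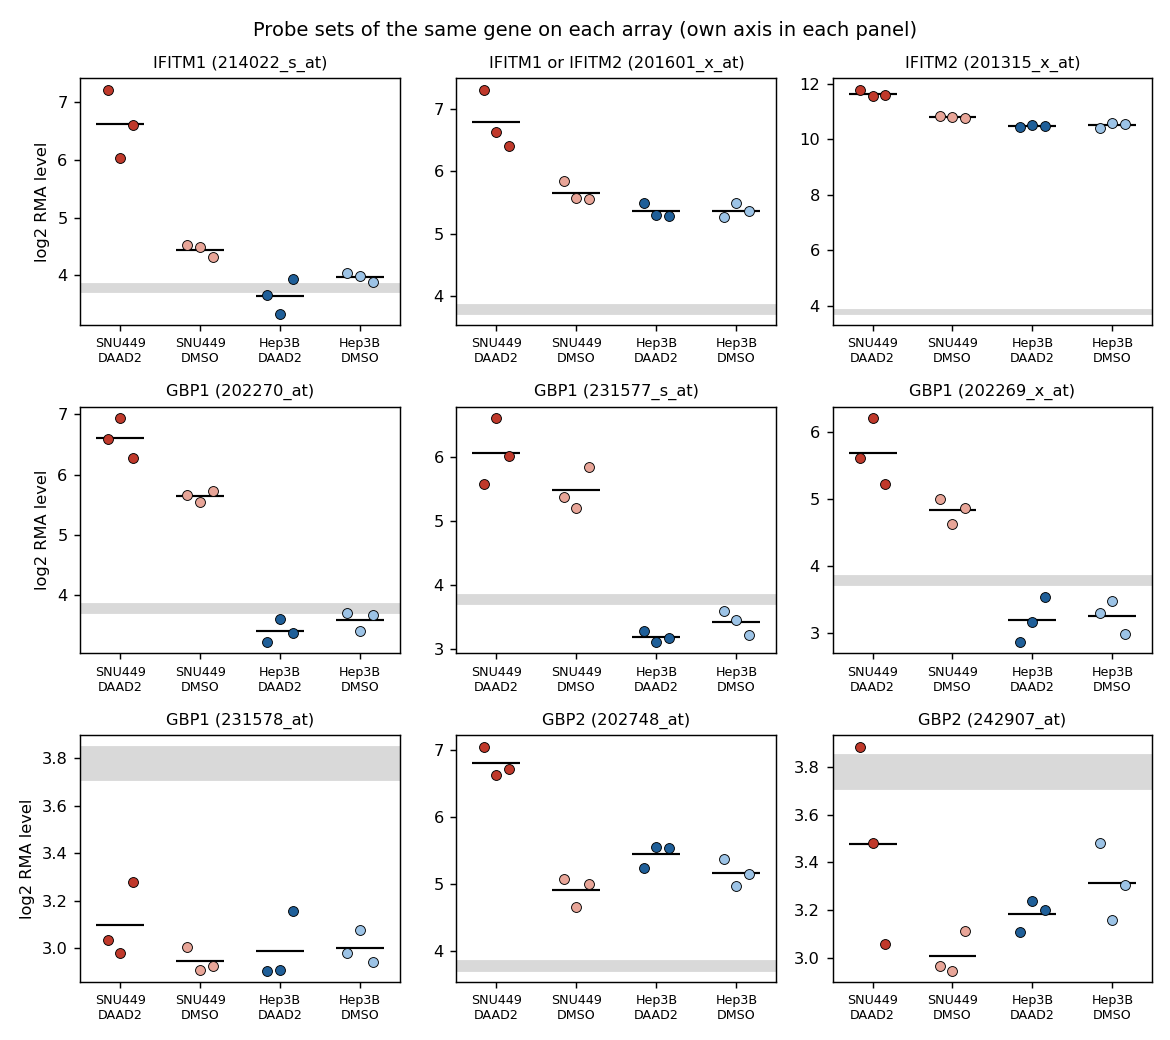
Log2 RMA level (y axis, its own range in each panel) on each array for the probe sets of IFITM1, IFITM2, GBP1 and GBP2, with points for arrays, lines for group means and a grey band for the range of the array medians (3.71 to 3.85). All points of GBP1 231578_at, and all but 1 of those of GBP2 242907_at, lie below the top of the grey band, unlike the SNU449 points of the other probe sets of these genes.

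At an adjusted p under 0.05 from limma with Benjamini-Hochberg adjustment over all probe sets, 7 of the 15 probe sets were called higher and 0 lower in SNU449, where 1.04% of all probe sets were called higher and 0.417% lower. These were the 4 IFITM probe sets, GBP1 202270_at, GBP2 202748_at and GBP3 223434_at. A fold over 1.5 on the higher side, which 1.9% of all probe sets had, was reached by 9 of the 15, and one on the lower side, which 1.56% had, by 0. The groups did not overlap, with DAAD2 higher, for 8 of the 15 and for 8.34% of all probe sets. The median difference was 0.70 over the 15 probe sets and 0.01 over all. Since this contrast led to the choice of the genes, nothing is read from these counts, nor from how often a call recurred. With each of the 6 SNU449 arrays left out in turn, GBP2 202748_at and GBP3 223434_at were called 6 times, IFITM1 214022_s_at 4, IFITM2 3, GBP1 202270_at 2, and IFITM3 and 201601_x_at 1 time each. The number called was 2 without DMSO replicate 2 (0.225% of all probe sets called) or DMSO replicate 3 (0.192%), 3 without DAAD2 replicate 1 (0.234%) and 4 without DMSO replicate 1 (0.575%). It was 6 without DAAD2 replicate 2 (2.14%) or DAAD2 replicate 3 (0.972%), against 1.46% with all arrays.

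In Hep3B cells, which received 2 µM DAAD2, no IFITM or GBP probe set was called. IFITM1 had log2 levels of 3.67, 3.34 and 3.93 on 214022_s_at after DAAD2, against 4.04, 4.00 and 3.89 with DMSO. The groups overlapped, and the difference was -0.33 (95% interval -0.67 to 0.01, adjusted p = 0.345 from limma). GBP2 had 5.24, 5.55 and 5.54 on 202748_at after DAAD2 and 5.37, 4.97 and 5.15 with DMSO, also with overlap. Its difference of 0.28 (interval -0.03 to 0.59, adjusted p = 0.38 from limma) was the highest of the 15. IFITM2 had 10.42, 10.51 and 10.46 after DAAD2, against 10.39, 10.56 and 10.54 with DMSO, and IFITM3 had 11.02, 11.20 and 11.09, against 11.10, 11.02 and 10.95. The interval of the difference was -0.25 to 0.18 for IFITM2 and -0.14 to 0.30 for IFITM3, so that a fold of 1.5 lay outside both. GBP1 (202270_at, 3.22, 3.60 and 3.38 after DAAD2, 3.70, 3.41 and 3.67 with DMSO) and GBP3 (223434_at, 2.86, 2.77 and 2.78 after DAAD2, 2.58, 2.96 and 2.94 with DMSO) were below the array median on all 6 Hep3B arrays. At these levels a small difference could not be seen.

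Of the 15 probe sets, 0 were called in Hep3B with limma (adjusted p between 0.345 and 0.979), as were 0% of all probe sets. At an unadjusted p under 0.05 there were 0 of the 15, against 15% of all probe sets, and 0 of the 15 passed a fold of 1.5, against 1.55% of all on the higher side and 0.227% on the lower. The groups did not overlap for 2 of the 15, both with DAAD2 lower, GBP4 235175_at and GBP5 238581_at, against 9.99% of all probe sets on that side. Both lie below the array medians. The median difference was -0.03 over the 15 probe sets and -0.02 over all. The fit that shared its spread over all 12 arrays also called 0 of the 15, against 0.282% of all probe sets, as did the fit with trend and robust moderation, against 0.584%. Set side by side, IFITM1 had a difference of 2.17 at 20 µM in SNU449 and -0.33 at 2 µM in Hep3B, GBP2 1.89 and 0.28, GBP3 1.61 and -0.03, and GBP1 0.95 and -0.19. Because the doses differed and the SNU449 values led to the choice, these pairs were not tested against each other.

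**Figure D3:**
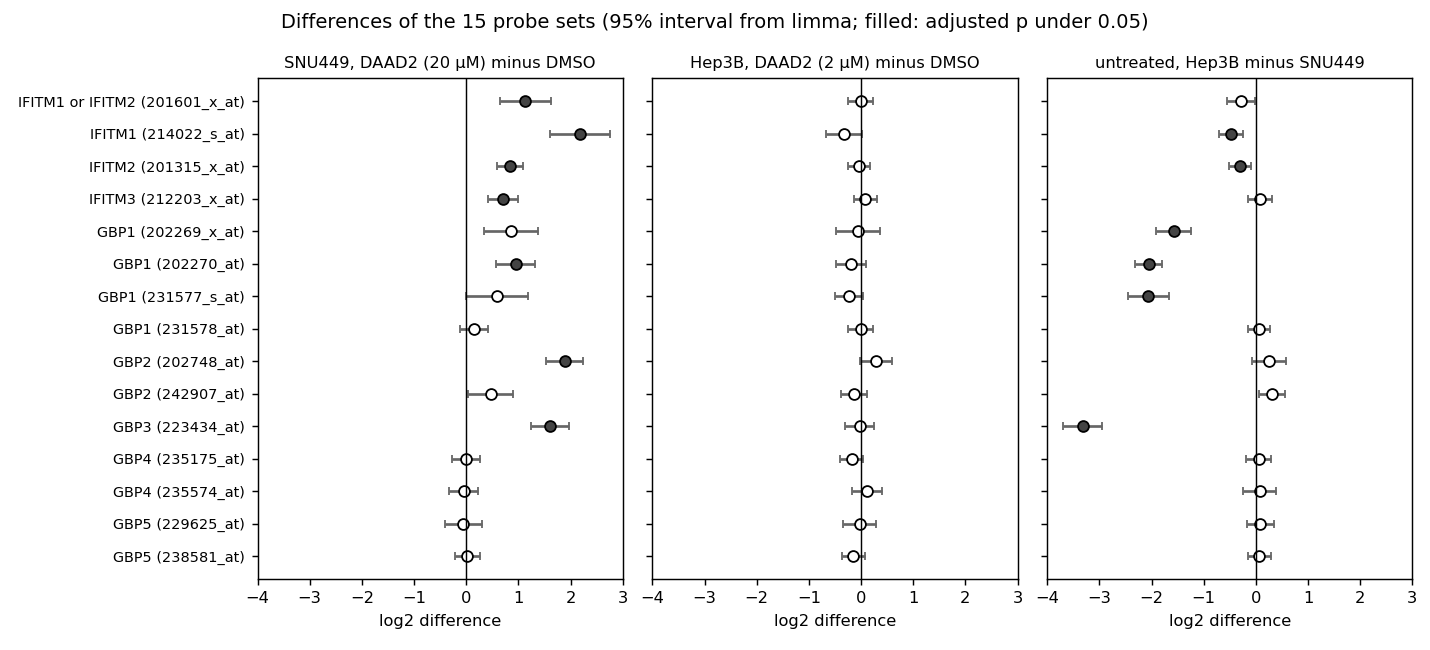
Log2 difference (x axis) of each of the 15 probe sets (y axis) with its 95% interval from limma, for DAAD2 minus DMSO in SNU449 (left), DAAD2 minus DMSO in Hep3B (middle) and Hep3B minus SNU449 in DMSO controls (right). Filled points have an adjusted p under 0.05, 7 in the left panel, 0 in the middle and 6 in the right, all 6 of them lower in Hep3B, and the left panel is a description, since its contrast led to the choice of the genes.

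The DMSO controls of the 2 lines differed mainly in GBP3 and GBP1, a contrast that shares its arrays with both treatment contrasts. GBP3 had log2 levels of 2.58, 2.96 and 2.94 in Hep3B, below the array medians, against 6.13, 6.44 and 5.88 in SNU449. The lines lay far apart, with a difference of -3.32 (SE 0.17, adjusted p = 7.3e-07 from limma). GBP1 had 3.70, 3.41 and 3.67 on 202270_at in Hep3B and 5.66, 5.55 and 5.73 in SNU449. All 3 GBP1 probe sets that lay above the array medians in SNU449 were lower in Hep3B, with differences of -2.05 on 202270_at (adjusted p = 1.41e-06), -1.58 on 202269_x_at (4.63e-05) and -2.06 on 231577_s_at (2.07e-05), all from limma. The size of these differences is limited by the low level in Hep3B.

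IFITM1 was slightly lower in Hep3B controls, at 4.04, 4.00 and 3.89, against 4.52, 4.49 and 4.32 in SNU449. Its difference of -0.47 (SE 0.10) passed the test (adjusted p = 0.00649 from limma) but not in the fit over all 12 arrays (adjusted p = 0.16). IFITM2 had 10.39, 10.56 and 10.54 in Hep3B, against 10.85, 10.80 and 10.76 in SNU449, without overlap. Its difference of -0.31 (adjusted p = 0.0399 from limma) lost its call with any 1 of the 6 arrays left out (adjusted p 0.0519 to 0.128). IFITM3 (difference 0.08, interval -0.16 to 0.31) and GBP2 (0.25, interval -0.08 to 0.58) were not called, with adjusted p of 0.669 and 0.265 from limma. In all, 6 of the 15 probe sets were lower in Hep3B, where 14.8% of all were, and 0 were higher, where 14.5% of all were. In either direction the 6 called probe sets stood against 29.3% of all, and 8 of the 15 had an unadjusted p under 0.05, against 37.1% of all. A fold over 1.5 on the lower side was reached by 4 of the 15 and by 10.9% of all. The lines did not overlap for 7 of the 15 with Hep3B lower, against 21.4% of all, and for 1 with Hep3B higher (GBP2 242907_at), against 20.2% of all. The median difference was 0.05 over the 15 probe sets and -0.01 over all.

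Over the 4 groups, the order of the mean levels thus differed between the genes. GBP3 stood at 7.76 in DAAD2-treated and 6.15 in DMSO-treated SNU449 cells, and at 2.80 in DAAD2-treated and 2.83 in DMSO-treated Hep3B cells. GBP1 had the same order of lines. GBP2 stood at 6.80 in DAAD2-treated SNU449 cells, followed by 5.44 in DAAD2-treated and 5.16 in DMSO-treated Hep3B cells and by 4.91 in DMSO-treated SNU449 cells, the last 3 with overlapping arrays between neighbours. IFITM3 stood at 11.65 in DAAD2-treated SNU449 cells, while the other groups, at 11.10 and 11.02 in DAAD2- and DMSO-treated Hep3B cells and 10.95 in DMSO-treated SNU449 cells, overlapped with their neighbours.

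Other genes of the pathway were taken from 7 lists set up by role, with earlier results of these data known, in which 68 of 73 genes had a probe set with a single symbol. In SNU449, 6 of the 68 genes (8.82%) were called higher after DAAD2 and 0 lower, where 1.82% of all genes were called higher and 0.561% lower. This contrast led to the choice of both families, so nothing is read from these counts. The SNU449 p-values of the list genes are given as a description. Among the kinases and transcription factors, IRF1, an activator that interferon-gamma induces, had a mean level of 7.07 ± 0.06 after DAAD2 and 6.36 ± 0.12 with DMSO (SD, n = 3 each, difference 0.71, adjusted p = 0.0232 from limma). IRF2, which binds the same motif and can oppose IRF1, differed by 0.76 (adjusted p = 0.0385 from limma). SOCS3, a feedback inhibitor of Janus kinases, had 8.15 ± 0.13 after DAAD2 and 7.03 ± 0.04 with DMSO (SD, n = 3 each, difference 1.12, adjusted p = 0.00434 from limma). Of the interferon-gamma type targets, the adhesion molecule ICAM1 rose by 0.67 (adjusted p = 0.0253 from limma). Of the 22 antiviral type I targets, the RNA-binding proteins IFIT1 and IFIT2 rose by 0.99 and 1.06 (adjusted p = 0.0252 and 0.0211 from limma). Other genes of these lists were lower without a call. Among the interferon-gamma type targets the largest absolute difference was -0.73, for CD274 (adjusted p = 0.289 from limma). The lowest difference was -0.48 among the antiviral targets (OAS1, 0.099) and -0.49 among the negative regulators (USP18, 0.437). The median difference was -0.06 over the 12 interferon-gamma type targets and 0.13 over the antiviral targets. SOCS3 alone of the 6 called genes kept its call with each SNU449 array left out in turn and with the replicate number as a block. The counts without one array lay between 1 and 5 and moved with the share of all probe sets called. The count was 1 without DAAD2 replicate 1 (0.234% of all called), DMSO replicate 2 (0.225%) or DMSO replicate 3 (0.192%). It was 3 without DAAD2 replicate 3 (0.972%) or DMSO replicate 1 (0.575%), and 5 without DAAD2 replicate 2 (2.14%).

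No gene was called among the 9 interferons and receptors, the 4 measured relatives of the 2 families or the 8 genes that act on the proteins in SNU449. The largest differences there were 0.51 for the receptor chain IFNAR2 (adjusted p = 0.129 from limma), 0.17 for IFITM10 (0.772) and -0.53 for ICMT, a methyltransferase of prenylated proteins (0.11). The chemokines CXCL9 and CXCL10, classical targets of interferon-gamma, averaged 3.45 and 3.64 after DAAD2 and 3.50 and 3.72 with DMSO, at or below the array medians. In Hep3B, 0 of the 68 genes were called, as were 0% of all genes with limma over all probe sets. A limma fit with only 1 probe set per gene called 1.11% of all genes there, and the list genes were not counted for it. The differences of largest absolute size in each list ran from -0.39 for IRF7 (adjusted p = 0.133 from limma) to 0.48 for the prenyltransferase subunit PGGT1B (0.151). The lowest difference of the 68 genes was -0.46, for the antiviral target MX2 (0.199). The 6 genes called in SNU449 had Hep3B differences of 0.30 (IRF2), 0.29 (ICAM1), 0.11 (IFIT2), -0.05 (SOCS3), -0.06 (IFIT1) and -0.07 (IRF1). Over the 68 genes the median difference was 0.05 in SNU449 and -0.01 in Hep3B, against 0.00 and -0.01 over all genes.

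**Figure D4:**
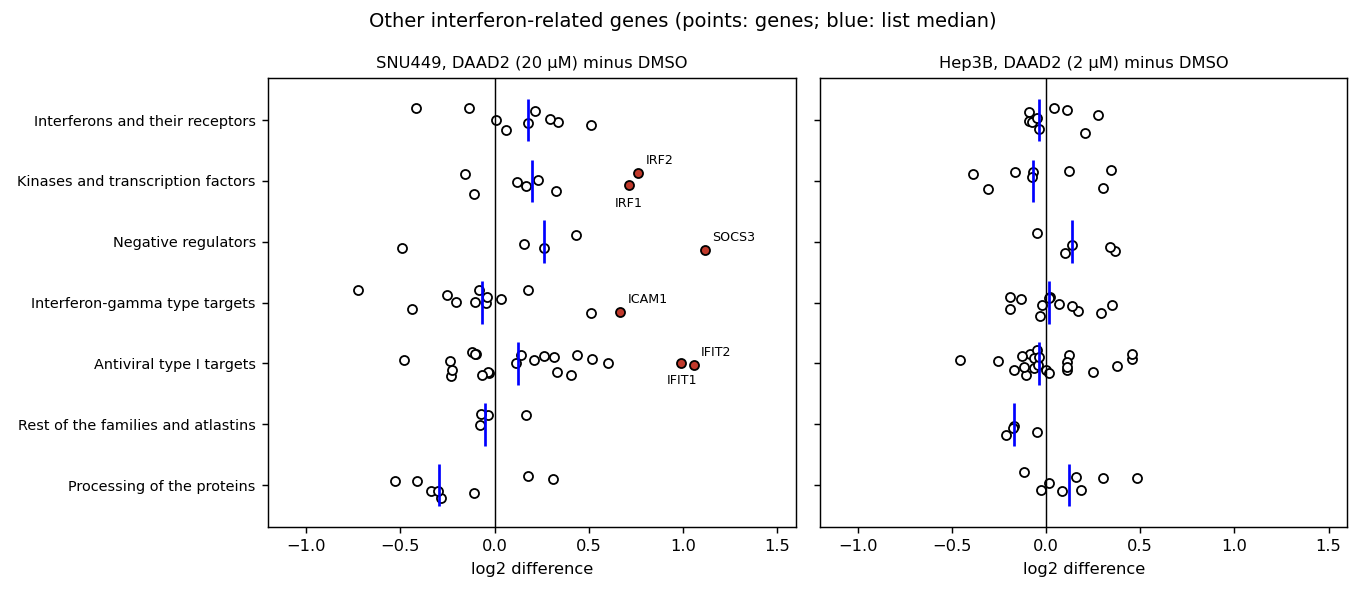
Log2 difference of DAAD2 minus DMSO (x axis) for 68 other interferon-related genes in 7 lists (y axis), in SNU449 (left) and Hep3B (right), with a point per gene and a blue line at each list median. Filled points, named in the panel, have an adjusted p under 0.05, 6 in SNU449 and 0 in Hep3B, and most points of both lines lie within 0.5 of 0. The left panel is a description, since its contrast led to the choice of the families.

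Between the DMSO controls, 20 of the 68 genes (29.4%) were higher in Hep3B and 17 (25%) lower, against 21.4% of all genes higher and 19.4% lower. Among the receptors, IFNGR1, a chain of the interferon-gamma receptor, was higher in Hep3B by 1.74 (adjusted p = 1.81e-06 from limma), and IFNLR1 by 1.15, while IFNAR1 was lower (-0.85). JAK1, a kinase that all these receptors use, was lower in Hep3B (-1.47), as was IRF9, the DNA-binding part of the type I interferon factor (-1.54), and IRF8 was higher (1.45). SOCS3 had a mean level of 3.51 in Hep3B and 7.03 in SNU449 (difference -3.53, adjusted p = 3.66e-07 from limma), and was below the array medians in Hep3B, while the phosphatase PTPN2 and the inhibitor PIAS1 were higher in Hep3B by 1.02 and 0.98. The antiviral targets split, with ISG15, a ubiquitin-like modifier, higher in Hep3B by 3.27, and IFIT3 and OAS1, a sensor of double-stranded RNA, lower (-3.18 and -3.15, with OAS1 below the array medians in Hep3B). Of the interferon-gamma type targets CD274, the gene of the checkpoint ligand PD-L1, and WARS1 were lower in Hep3B (-1.74 and -1.06), where CD274 was below the array medians, and GCH1 was higher (1.40). NEDD4, a ubiquitin ligase of IFITM3, was lower in Hep3B (-2.76), and RCE1, a protease of prenylated proteins, and ZDHHC20, a palmitoyltransferase of IFITM3, were higher (1.84 and 0.78).

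For IFITM1, GBP1 and GBP2, the genes with the most similar profile over the 12 arrays were found by the root mean square distance between profiles, each centred on its own mean. The 12 arrays are of 4 groups, so a small distance mostly reflects similar group means. Closest to IFITM1 were FGG, the fibrinogen gamma chain, at 0.32 log2 units, the protease MMP7 at 0.34, UNC5CL at 0.36, the secreted Wnt inhibitor SFRP4 at 0.41 and the cytokine IL1B at 0.42, against a spread of IFITM1 around its own mean of 1.19. FGG averaged 10.08 in DAAD2-treated and 7.65 in DMSO-treated SNU449 cells and 7.15 and 7.33 in DAAD2- and DMSO-treated Hep3B cells. Closest to GBP1 were the junction protein JAM2 at 0.19 and SRPX at 0.20, then ZNF585B, BCAR3 and SNAP91 at up to 0.23, with a spread of GBP1 of 1.37. Closest to GBP2, with a spread of 0.75, were KLHDC8B at 0.28, the acyltransferase PLAAT4 at 0.31, the glycogen-targeting subunit PPP1R3B at 0.37, the lactate dehydrogenase subunit LDHB at 0.39 and the lipoyltransferase LIPT1 at 0.41. Between the IFITM probe sets, the set shared by IFITM1 and IFITM2 lay 0.21 from IFITM2 and 0.62 from IFITM1.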

How the data were processed

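Total RNA of DAAD2- and DMSO-treated SNU449 and Hep3B cells was measured on 12 arrays. The deposited values are on the log2 scale and were computed by the authors with RMA, which corrects the background, normalizes the arrays to each other and summarises the probes of each probe set (version not given in the sources used here), and the study's methods name BRB Array Tools for the normalization. All per-array columns were used (0 left out). Groups came from the sample labels. After 62 control probe sets were removed, 54613 probe sets were tested per contrast with limma 3.58.1 (R 4.3.3), two-sided, with Benjamini-Hochberg adjustment, no filter and a threshold of 0.05. An exact test of 3 against 3 arrays cannot give a p under 0.1. Of the probe sets, 41091 carried 1 symbol, 1801 several and 11721 none here, and for each gene the one with the highest mean stood for it.

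The members and lists were chosen with earlier results of these data known. All probe sets of the members are accounted for. From each list up to 3 called genes with the largest difference are named, or the largest where none was called. The chemokines CXCL9 and CXCL10, the genes CD274, OAS1 and USP18 in SNU449, and MX2 in Hep3B were named after their values were seen. For IFITM1, GBP1 and GBP2 the 5 nearest genes are given. Same-numbered arrays of treated and control groups did not clearly deviate together, so nothing was paired by number, and shared batches were not tested. Alternatives were a fit over all 12 arrays, the replicate block, median centring, quantile and cyclic loess normalization, a dim filter, trend and robust moderation, 1 probe set per gene, and each array left out. The fit was tested on simulated data. Promoters were RefSeq windows. Figures were drawn with matplotlib 3.10.9 under Python 3.11.15, from tables handled with pandas 2.3.3 and numpy 2.4.6.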

Additional observations from a re-analysis of the deposited data

Results flagged for a closer look

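For 3 of the 15 probe sets, every DAAD2 array lay above the DMSO mean in SNU449 and below it in Hep3B, as for 10.9% of all probe sets in one direction or the other. These were IFITM1 214022_s_at, with a difference of 2.17 in SNU449 and -0.33 in Hep3B, GBP1 231577_s_at (0.59 and -0.24) and GBP2 242907_at (0.47 and -0.13). The SNU449 difference of GBP1 231577_s_at was 0.32 without DAAD2 replicate 2, the array with the raised GAPDH 3′ signal, and that of GBP2 242907_at was 0.26 without DAAD2 replicate 1. The SNU449 side of this rule was the contrast that led to the choice of the genes, so nothing is read from the count. The difference between the lines was not tested, and the doses were 20 and 2 µM. The Hep3B levels of all 3 were near or below the array medians.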

How the results depend on the processing

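In SNU449 the 7 called IFITM and GBP probe sets (1.46% of all called) numbered between 5 and 7 under every other setting with all arrays in use, where 0.48% to 3.72% of all were called, and 2 to 6 with 1 array left out. Of the 15, 9 entered the dim filter and 8 the fit with 1 probe set per gene. The called interferon list genes were 6 in the main comparison, all higher, where 1.46% of all probe sets were called. They numbered 10 in the fit over all 12 arrays, 8 higher and 2 lower (OAS1 and WARS1), where 3.39% of all were called. With the replicate number as a block 1 was called (0.48% of all), and 1 to 5 with 1 array left out (0.192% to 2.14%). Correlations of same-numbered arrays' deviations lay between -0.08 and -0.01 in SNU449, -0.27 and 0.09 in Hep3B and 0.02 and 0.21 between the lines. Arrays of unlike number reached 0.34 in Hep3B (DAAD2 replicate 1 with DMSO replicate 2), and shared batches were not tested. The block gave 5 member calls in SNU449, without IFITM3 and GBP1 202270_at, 0 in Hep3B and 5 between the lines. It called 0.48%, 0% and 29.7% of all probe sets there. No setting called a member in Hep3B. Near-zero differences of GBP4 and GBP5, below the array medians, changed sign under some settings within both lines and, for GBP4 235574_at, between them, as did that of GBP1 231578_at in Hep3B. Of the other members only small Hep3B differences did: with centring on the median 201601_x_at became 0.0468, IFITM2 0.0203 and GBP3 0.0296, with quantile normalization IFITM3 -0.0220 and GBP3 0.0264, and with cyclic loess IFITM3 -0.0509, GBP1 202269_x_at 0.0111 and GBP3 0.00786. With 1 array left out 201601_x_at lay between -0.0753 and 0.0503, GBP1 202269_x_at between -0.238 and 0.0985 and GBP3 between -0.149 and 0.0424. Probe sets over a fold of 1.5 in Hep3B, 847 higher and 124 lower as deposited, were 1242 and 87 after centring, 438 and 224 after quantile normalization and 673 and 179 after loess. The causes were not tested. Between the lines IFITM2 also lost its call with the block (adjusted p = 0.0752) and with centring (0.0603), and GBP2 242907_at gained one with trend and robust moderation (0.0445) and without Hep3B DMSO replicate 2 (0.0417, all from limma). Low signal limits GBP4 and GBP5 in both lines and GBP1 and GBP3 in Hep3B.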
